A study of Mus musculus with 20 samples.

Results

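The comparison concerns 5-formylcytosine (5fC) in the heart and the carcass of the same wild-type (WT) mouse embryos, collected at mid-gestation. Its members are 4 of the 20 libraries of the series, chosen by their labels: heart and carcass of the embryos i6 and i9. They hold 87420 autosomal peaks, of 1497348 peaks in the whole series. All 4 libraries carry the wild-type Tdg genotype, and i6 and i9 come from different litter pairs. Libraries of Tdg null littermates and of WT hindbrain and liver were used as a readout of regions defined without them. The Tdg null embryo i1 is paired with i6, and i5 with i9. The null embryos carry a neomycin cassette in place of the part of Tdg that codes for its catalytic domain. Feature enrichment was also read in the Tdg null hearts and carcasses. A smaller set of heart-only regions was also picked with the Tdg null hearts and carcasses and with WT hindbrain and liver. The labels do not say which organs the carcass still held, and a dissected tissue is a mixture of cell types. The sources give no sex for these embryos, so all values are for autosomes.

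5fC arises when TET enzymes oxidise 5-methylcytosine, through 5-hydroxymethylcytosine, and it is excised by thymine DNA glycosylase (TDG) before base excision repair puts back an unmodified cytosine. It is formed mostly at CpG dinucleotides and is known for marking regulatory DNA, enhancers among it. In the pull-down, an aldehyde-reactive probe tags 5fC with biotin and the tagged fragments are sequenced. A peak is a stretch where such fragments pile up, given here by its position alone, so its height is not known. The depth of each library is not known from these files either.

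Regions that recurred in both embryos were sorted into 3 classes. Peaks of the 4 libraries that overlapped or touched were joined into 60302 regions. A heart-only region had peaks of both hearts and of neither carcass, a shared region had peaks of all 4 libraries, and a carcass-only region had peaks of both carcasses and of neither heart. The 300 bases around the centre of the widest regions inside protein-coding genes are given first, as examples of the DNA under the widest peaks. They were chosen for width and need not be typical of their class. CpG dinucleotides are in capitals, and all are on the + strand of NCBIM37. The copy number beside each is the median number of places in the genome that hold its 32-base words.
Heart-only, in an intron of Osbpl10, chr9:115059901-115060200, 5 CpGs, median of 2 copies: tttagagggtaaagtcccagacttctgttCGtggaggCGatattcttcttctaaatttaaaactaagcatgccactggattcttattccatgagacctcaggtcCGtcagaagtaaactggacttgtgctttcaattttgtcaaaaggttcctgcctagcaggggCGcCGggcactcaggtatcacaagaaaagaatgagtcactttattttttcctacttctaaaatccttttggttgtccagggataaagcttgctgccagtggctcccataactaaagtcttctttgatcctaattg
Heart-only, in an intron of Cyp2c29, chr19:39334501-39334800, 1 CpG, median of 16 copies: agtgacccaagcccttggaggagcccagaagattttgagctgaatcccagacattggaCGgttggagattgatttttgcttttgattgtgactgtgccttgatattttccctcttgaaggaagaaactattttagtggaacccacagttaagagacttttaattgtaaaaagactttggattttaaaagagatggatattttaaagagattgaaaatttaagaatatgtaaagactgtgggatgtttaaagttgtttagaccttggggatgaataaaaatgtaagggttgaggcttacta
Shared, in an intron of Cldn14, chr16:93993751-93994050, 8 CpGs, 1 copy: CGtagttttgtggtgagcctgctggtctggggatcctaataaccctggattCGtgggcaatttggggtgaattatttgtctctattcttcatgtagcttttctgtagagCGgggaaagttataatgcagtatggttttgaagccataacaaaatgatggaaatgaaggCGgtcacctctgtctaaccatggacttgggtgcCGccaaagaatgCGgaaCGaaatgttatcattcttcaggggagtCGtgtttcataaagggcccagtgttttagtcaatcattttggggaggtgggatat
Shared, in the overlap of 2610305D13Rik and Zfp534, chr4:147049051-147049350, 0 CpGs, median of 28 copies: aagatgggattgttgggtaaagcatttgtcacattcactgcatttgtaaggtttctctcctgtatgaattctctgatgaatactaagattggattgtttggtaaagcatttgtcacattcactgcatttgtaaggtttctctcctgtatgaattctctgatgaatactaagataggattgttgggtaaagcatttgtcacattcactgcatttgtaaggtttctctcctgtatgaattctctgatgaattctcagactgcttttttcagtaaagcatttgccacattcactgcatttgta
Carcass-only, in an intron of Gli2, chr1:120932051-120932350, 5 CpGs, 1 copy: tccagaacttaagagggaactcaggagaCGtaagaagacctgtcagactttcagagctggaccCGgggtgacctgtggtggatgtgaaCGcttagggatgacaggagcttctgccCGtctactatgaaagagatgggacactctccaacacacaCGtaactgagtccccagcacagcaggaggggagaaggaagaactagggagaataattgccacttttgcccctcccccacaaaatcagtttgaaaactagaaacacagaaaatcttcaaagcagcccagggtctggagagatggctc
Carcass-only, in an intron of Stx8, chr11:68001651-68001950, 6 CpGs, 1 copy: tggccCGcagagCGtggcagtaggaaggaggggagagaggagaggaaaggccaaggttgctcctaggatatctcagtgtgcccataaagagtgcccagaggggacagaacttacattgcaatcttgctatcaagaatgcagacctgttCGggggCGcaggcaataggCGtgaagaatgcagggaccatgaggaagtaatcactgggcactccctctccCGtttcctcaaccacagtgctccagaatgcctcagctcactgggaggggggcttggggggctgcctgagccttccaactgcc
Both carcass-only stretches are single-copy DNA, while both heart-only stretches and one of the shared stretches are found at more than 1 place in the genome.

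The 4 stretches that follow were chosen after the values were seen. They are the heart-only regions in genes of the heart and blood lists, which are described with those genes, and the widest region inside a protein-coding gene that had peaks in the WT and Tdg null hearts and in no WT or Tdg null carcass, WT hindbrain or WT liver.
Heart-only, in an intron of Zfpm2, chr15:40860351-40860650, 7 CpGs: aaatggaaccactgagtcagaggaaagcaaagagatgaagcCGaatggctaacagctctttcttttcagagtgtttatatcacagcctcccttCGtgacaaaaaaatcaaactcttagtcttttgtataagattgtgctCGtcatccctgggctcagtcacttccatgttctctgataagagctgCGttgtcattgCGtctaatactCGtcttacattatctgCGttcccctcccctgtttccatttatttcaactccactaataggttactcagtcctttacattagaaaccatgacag
Heart-only, in Slc8a1, at an exon annotated there, chr17:81840351-81840650, 4 CpGs: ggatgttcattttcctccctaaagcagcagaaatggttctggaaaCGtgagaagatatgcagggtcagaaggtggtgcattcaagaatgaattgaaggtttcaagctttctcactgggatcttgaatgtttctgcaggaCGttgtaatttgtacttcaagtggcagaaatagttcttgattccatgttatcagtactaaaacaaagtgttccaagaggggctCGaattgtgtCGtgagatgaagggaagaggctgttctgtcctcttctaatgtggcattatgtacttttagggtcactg
Heart-only, in an intron of Zfpm1, chr8:124854001-124854300, 4 CpGs: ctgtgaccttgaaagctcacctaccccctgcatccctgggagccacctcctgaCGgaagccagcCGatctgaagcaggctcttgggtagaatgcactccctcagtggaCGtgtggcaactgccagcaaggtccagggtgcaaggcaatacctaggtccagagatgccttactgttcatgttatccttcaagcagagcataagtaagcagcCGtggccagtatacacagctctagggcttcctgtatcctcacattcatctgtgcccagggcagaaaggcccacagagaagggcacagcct
Heart-only, in Fam108a, at an exon and a CpG island, chr10:80046951-80047250, 5 CpGs: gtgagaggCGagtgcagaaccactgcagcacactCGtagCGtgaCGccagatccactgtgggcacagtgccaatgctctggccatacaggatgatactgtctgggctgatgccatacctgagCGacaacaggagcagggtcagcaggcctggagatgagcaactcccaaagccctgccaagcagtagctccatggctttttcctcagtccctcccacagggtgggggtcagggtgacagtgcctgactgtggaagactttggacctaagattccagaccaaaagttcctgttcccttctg
All 4 of these stretches are single-copy. The exon and CpG island given for Fam108a, and the exon given for Slc8a1, were read over the whole region. For Fam108a that region is chr10:80046601-80047600, which is wider than the bases printed. Whether the printed bases themselves lie in these features was not tested.

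Carcass peaks covered far more of the genome than heart peaks. The heart of i6 had 5881 peaks covering 2.95 Mb and the heart of i9 had 5418 peaks covering 2.89 Mb. The carcass of i6 had 41464 peaks covering 23.7 Mb and the carcass of i9 had 34657 peaks covering 20.2 Mb. The hearts lay close together, and neither came near a carcass. Carcass covered 8.05 times the heart length in i6 and 6.995 times in i9, a mean log2 ratio of 2.91 ± 0.14 (SD, n = 2 embryos). With 2 embryos, an exact sign-flip permutation test cannot go below p = 0.5, which holds for each difference between the tissues given here. The difference within each embryo exceeded the spread between embryos. How far depth, pull-down efficiency or the amount of 5fC set this difference cannot be told apart from positions alone, so the values that follow are scaled to covered length.

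Peak widths were alike at the median and differed in the tails. The median was 400 bp in the heart of i6 and 500 bp in the other 3 libraries. The widest peak was 89100 bp in the heart of i6 and 34400 bp in the heart of i9, against 3000 bp and 2700 bp in the carcasses. Peaks of at least 2000 bp made up 9.37% of the covered length in the heart of i6, 2.54% in the heart of i9, 0.577% in the carcass of i6 and 0.594% in the carcass of i9. The 89100 bp peak, chr8:19915801-20004900, spans Gm15319 and lies in a heart-only region that all 4 WT hindbrain libraries also held and that no Tdg null heart or carcass held.

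The heart of i6 stood apart from the other libraries in the DNA under its peaks. Of its 5881 peak centres, 39.2% had a median of over 1 copy in the genome, against 10.9% in the heart of i9, 6.63% in the carcass of i6 and 6.99% in the carcass of i9. Over 23907 windows placed every 100 kb along the autosomes the share was 13.1%. The carcasses and the heart of i9 thus lay below this grid and the heart of i6 lay well above it. Reads from repeated DNA can be placed at only 1 of several equal positions by the aligner, and the part of this in the results was not tested. Results below are given for each embryo, and the feature enrichments and the readout in other libraries also for single-copy DNA.

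**Figure D1:**
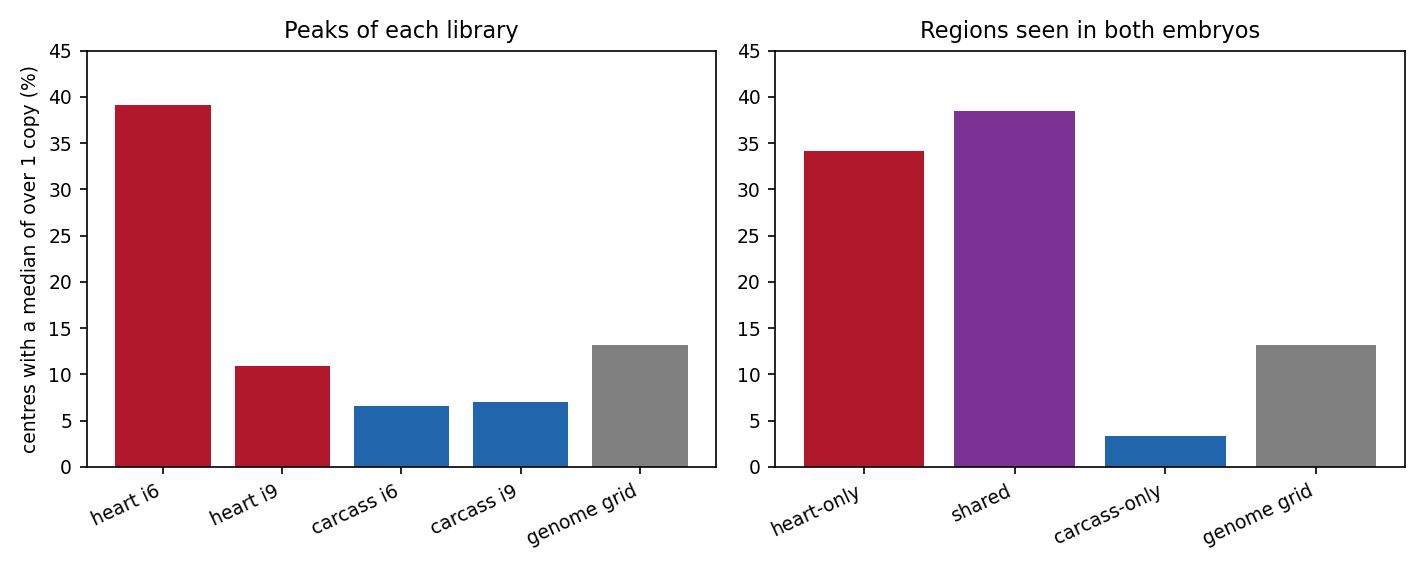
Share of 300 bp centres, in percent, whose 32-base words have a median of over 1 copy in the genome, for peaks of each WT library (left) and for regions that recurred in both embryos (right), with windows placed every 100 kb in grey. The heart of i6 reaches 39.2%, heart-only regions 34.1% and shared regions 38.5%, while carcass-only regions stand at 3.39%.

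A large part of the heart peaks lay where the carcass of the same embryo also had a peak. In i6, 1874 of 5881 heart peaks were overlapped, 31.9% (95% exact interval 30.7 to 33.1). In i9, 2449 of 5418 were overlapped, 45.2% (43.9 to 46.5). The shares expected from the length the carcass covered were 1.66% and 1.49%, and the intervals cover counting error only. Heart peaks therefore met carcass peaks 19.2 and 30.4 times as often as their placement by length alone would give. The remaining 4007 heart peaks of i6 and 2969 of i9 had no carcass peak. With single-copy peaks alone, an alternative chosen after seeing the data, 22.5% of heart peaks in i6 and 45.9% in i9 were overlapped. The shares also rest on which carcass peaks are kept. With each carcass cut to its widest peaks at the covered length of heart, 2.04% and 6.37% of heart peaks were overlapped. This cut changes covered length and peak width together.

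Seen from the carcass, overlap was rare in share and equally high in fold. Of the carcass peaks, 4.52% in i6 and 7.06% in i9 held a heart peak, against 0.240% and 0.233% expected. With single-copy peaks alone, an alternative chosen after seeing the data, the shares were 2.08% and 6.88%. Counted in bases, the overlap within an embryo had a log2 fold over expectation of 4.85 in i6 and 5.68 in i9, and with an expectation matched on GC content 4.43 and 4.90. Matching the GC content thus lowered the fold in both embryos, more so in i9.

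Libraries of the same tissue were compared across the embryos. Of the heart peaks, 15.5% in i6 and 16.9% in i9 met a peak of the other heart, against 0.212% and 0.230% expected. In bases, the hearts overlapped with a log2 fold of 7.21, the carcasses with 5.93, and heart and carcass with 4.85 to 5.68 across the 4 pairings of embryos. With the GC-matched expectation these were 6.49, 5.37 and 4.43 to 4.90. The highest fold that can be reached falls as covered length rises, so these folds do not rank the pairs. The bases in both libraries as a share of the bases in either (Jaccard index) were 0.102 for the hearts, 0.390 for the carcasses and 0.033 and 0.058 for heart and carcass of i6 and i9. Carcass peaks met each other in 51.3% and 61.4% of cases. The carcass of i6 met more peaks of both hearts than the carcass of i9 did, 31.9% against 28.3% for the heart of i6 and 50.6% against 45.2% for the heart of i9. Scaled to covered length, the heart of i6 stood at a log2 fold of 4.85 with its own carcass and 4.94 with the other, and the heart of i9 at 5.68 and 5.60.

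**Figure D2:**
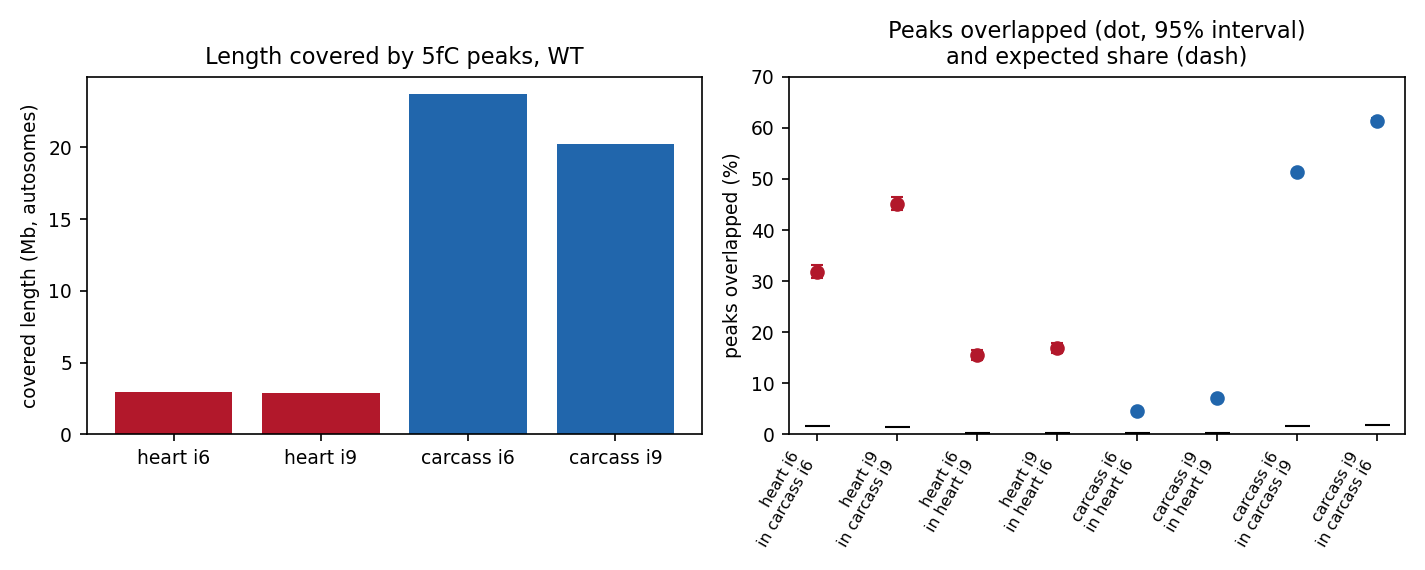
Left, autosomal length covered by peaks, in Mb, in the hearts (red) and carcasses (blue) of the WT embryos i6 and i9. Right, share of peaks in percent overlapped by a peak of another library, with 95% exact intervals that are often smaller than the dot, and the share expected from covered length as a dash; every dot lies above its dash, from 4.52% for carcass i6 in heart i6 to 61.4% for carcass i9 in carcass i6.

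Wider heart peaks were met by carcass peaks more often, up to a width. In i9 the share rose from 28.8% of 1217 peaks of 200 or 300 bp to 65.2% of 469 peaks of 800 or 900 bp. In i6 it rose from 13.0% of 1943 to 50.4% of 270 over the same widths. The shares expected by length rose too, from 1.07% to 1.93% in i9 and from 1.24% to 2.28% in i6. At 1000 bp and over the overlapped share was lower, 55.2% of 248 peaks in i9 and 29.4% of 231 in i6. The widest heart peaks were thus not those that the carcass shared most.

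Few regions recurred in both hearts. Only 918 of the 60302 regions had peaks of both hearts, and of these 384 had neither carcass, 111 had 1 carcass and 423 had both. Peaks of both carcasses were in 21285 regions, of which 18122 had neither heart. With the carcasses cut to their widest peaks at the covered length of heart there were 843 heart-only, 36 shared and 923 carcass-only regions. The numbers thus depend on which carcass peaks are kept, and this cut changes covered length and peak width together. The heart of i6 alone held 3299 regions and the heart of i9 alone held 1992. Of the both-heart regions, 41.8% were heart-only and 46.1% were shared, while 85.1% of the both-carcass regions were carcass-only and 1.99% were shared.

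The classes differed in sequence. The median GC content of the central 300 bp was 50.3% in heart-only, 49.7% in shared and 47.0% in carcass-only regions, against 41.7% on the grid. Each class held a median of 6 or 7 CpGs there, against 2 on the grid. Multi-copy centres made up 34.1% of the heart-only regions (131 of 384), 38.5% of the shared regions (163 of 423) and 3.39% of the carcass-only regions (614 of 18122). CpG number therefore set all 3 classes apart from the grid in the same way, and copy number set carcass-only regions apart from the classes that hold heart peaks.

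Short sequence motifs also differed between the classes. The motif CAGCTG, an E-box that basic helix-loop-helix factors bind, was in 14.3% of heart-only, 20.8% of shared and 24.8% of carcass-only windows, against 11.0% on the grid. TAAACA, the core bound by forkhead factors, was in 9.90% of heart-only, 16.1% of shared, 21.9% of carcass-only and 23.7% of grid windows. GGGCGG, bound by Sp and Klf factors, was in 11.2%, 11.1%, 6.20% and 2.81%. AGATAA, the GATA factor motif, was in 21.9% of heart-only and 13.4% of carcass-only windows, beside 19.0% on the grid. The letters were searched on both strands in windows of 300 bp, no motif contains another, and a match is no binding site. The shares were not matched on GC content, which also differed between the classes and the grid. In single-copy windows alone the shares of the E-box were 15.02%, 25.8%, 25.3% and 11.5%, and those of AGATAA 26.5%, 17.3%, 13.3% and 19.7%. The T-box motif AGGTGT (16.7%, 14.7%, 13.0% and 14.3%) and the TEAD motif GGAATG (19.0%, 15.6%, 20.9% and 15.9%) varied less over all windows. In single-copy windows the T-box motif was in 19.4%, 18.1%, 13.1% and 14.7%.

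CpG islands (CGIs), stretches dense in unmethylated CpGs that often hold promoters, separated the tissues most. Enrichment is the log2 ratio of peak bases in a feature to those expected per chromosome. It was 2.17 in the heart of i6 and 1.53 in the heart of i9, and -0.33 and -0.32 in the carcasses. The groups did not overlap, and heart exceeded carcass by 2.50 in i6 and 1.85 in i9 (mean 2.17 ± 0.46, SD, n = 2; exact p = 0.5, the smallest possible). In number, 237 heart peaks of i6 and 148 of i9 touched an island, 4.03% and 2.73%, against 0.851% and 0.874% of carcass peaks. With the GC-matched expectation the difference was smaller, 1.07 and 0.49, and the enrichment was 0.34 and -0.23 in the hearts and -0.74 and -0.72 in the carcasses. With single-copy peaks alone, an alternative chosen after seeing the data, the difference was 2.01 in i6 and 1.26 in i9. In the Tdg null embryos the enrichment was -0.88 (i1) and -0.95 (i5) in the hearts and -0.81 and -1.06 in the carcasses, a difference of -0.07 and 0.12, so the WT difference was not seen there.

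CGI enrichment was compared between heart peaks with and without a carcass peak of the same embryo. Peaks without one had enrichments of 2.05 in the heart of i6 and 1.93 in the heart of i9. Peaks with one had 2.37 and 0.96. Carcass peaks without a heart peak had -0.70 and -0.49. In i9 the enrichment was thus higher outside the carcass peaks, and in i6 slightly lower.

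Exons and promoters were also more enriched in heart, by less. For exons the enrichments were 0.77 and 1.13 in the hearts and 0.42 in each carcass, a difference of 0.36 in i6 and 0.71 in i9, beside 0.36 and 0.58 in the Tdg null embryos i1 and i5. For promoters, the 1000 bp upstream of a start site, they were 0.33 and 0.25 in the hearts and -0.08 and -0.10 in the carcasses, a difference of 0.42 and 0.35. Against the GC-matched expectation the exon difference was 0.15 and 0.20, and the promoter difference was 0.18 in i6 and -0.14 in i9, so it changed sign in i9. Introns differed by -0.17 and 0.01 and intergenic regions by 0.11 and -0.09, with opposite signs in the embryos. With single-copy peaks alone, the differences in i6 and i9 were 0.91 and 0.76 for exons, 0.69 and 0.23 for promoters, 0.055 and 0.0085 for introns and -0.20 and -0.11 for intergenic regions. Leaving out multi-copy peaks thus raised the exon difference in i6 and turned the sign of introns and intergenic regions in that embryo.

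**Figure D3:**
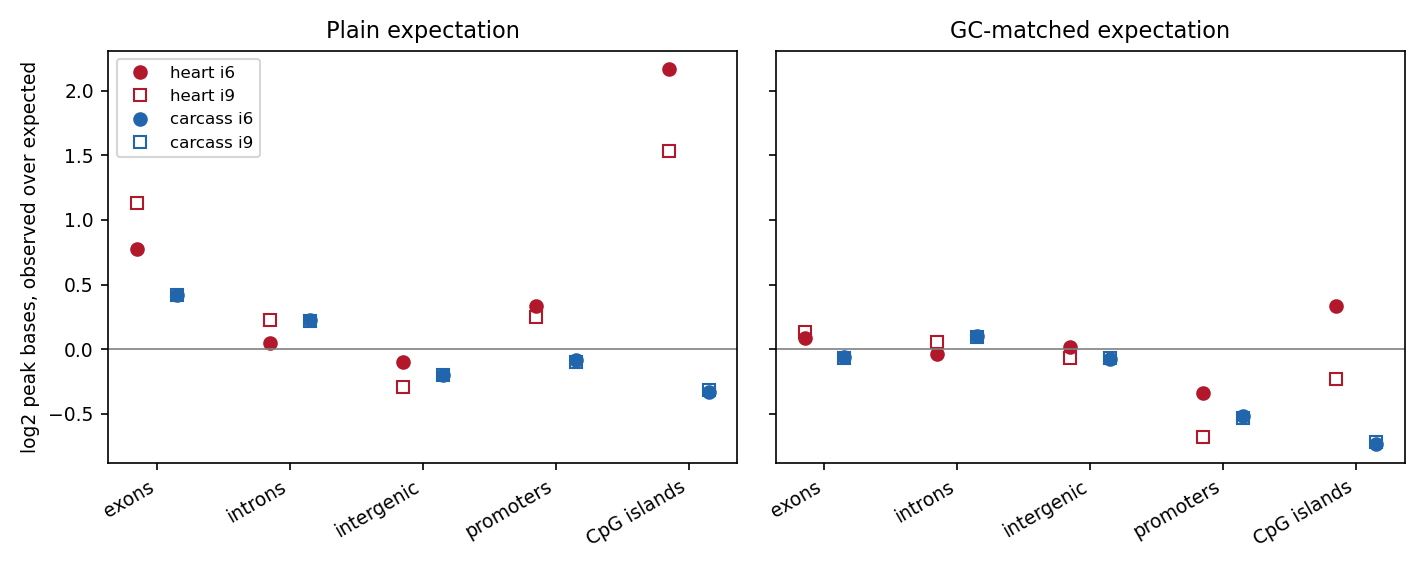
Log2 of observed over expected peak bases in each feature for the WT hearts (red) and carcasses (blue) of i6 (filled circles) and i9 (open squares), with the expectation per chromosome (left) or matched on GC content (right). At CpG islands the hearts stand at 2.17 and 1.53 and the carcasses at -0.33 and -0.32 on the left; on the right the gap is 1.07 in i6 and 0.49 in i9.

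Among the recurrent regions, 35 of 384 heart-only regions touched a CGI (9.11%, with 1.45% expected by length), 26 of 423 shared (6.15%, 1.34%) and 110 of 18122 carcass-only (0.607%, 1.25%). Among single-copy regions the shares were 5.14% of 253 heart-only, 1.92% of 260 shared and 0.520% of 17508 carcass-only. Exons were touched by 21.4% of heart-only regions (9.70% expected), 10.6% of shared and 10.8% of carcass-only, and promoters by 7.55%, 3.31% and 3.39%. In single-copy regions the promoter shares were 5.14%, 4.23% and 3.47%, with 3.93% expected in the heart-only class, and the exon shares were 24.5%, 15.4% and 11.0%. Heart-only regions thus had the highest shares for islands, exons and promoters, and in single-copy DNA the promoter shares lay close together. These shares restate the library comparison for the peaks that recurred and are no separate support for it.

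The genes at these islands and promoters, 57 regions in all, were looked up after the values were seen. Some heart-only regions touched both an annotated promoter and a CGI. They lay in or within 1 kb of Cdk8, a kinase of the Mediator complex, Cdv3, Zc3h7a and C230081A13Rik. A promoter here is that of any annotated transcript, so it need not belong to the gene named. A pair of neighbouring regions lay at exons and an annotated promoter within Eef2, translation elongation factor 2, at chr10:80640501-80641100 and chr10:80641301-80642100. One lay at a promoter annotated within Dot1l, the H3K79 methyltransferase, at chr10:80253701-80255700. Another lay at a promoter in or within 1 kb of Ezh1, a catalytic subunit of Polycomb repressive complex 2, at chr11:101055301-101056200. An island region was in Jarid2, a cofactor of the same complex, at chr13:44964801-44965500. Of the 35 island regions, 19 were found in all 4 WT hindbrains, 8 in none of them, and 26 in no Tdg null heart or carcass. The regions of Cdk8, Jarid2, Zc3h7a and C230081A13Rik were among the 19, and those of Eef2, which touch no island, were in all 4 hindbrains too. That of Ezh1 was in no hindbrain and in 1 Tdg null heart, and that of Dot1l was in no hindbrain, 1 WT liver, both Tdg null hearts and 1 Tdg null carcass. Jarid2, Zc3h7a and C230081A13Rik have multi-copy centres there, with medians of 2, 3 and 4 copies.

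Libraries that did not define the classes were then read at each region. Tdg null hearts held a peak at 50.8% (i1) and 36.5% (i5) of the heart-only regions, and Tdg null carcasses at 14.1% and 18.8%. Their covered lengths alone would give 15.3% and 7.52% for the hearts and 10.5% and 14.1% for the carcasses. In fold over expectation, the heart-only regions stood at 3.33 and 4.85 in the hearts and at 1.34 and 1.33 in the carcasses. Heart exceeded carcass by 1.31 on the log2 scale in i1 and by 1.86 in i5.

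The carcass-only regions went the other way in both Tdg null embryos. They were held by 68.5% and 83.7% in the Tdg null carcasses and by 64.0% and 33.3% in the Tdg null hearts, folds of 6.99 and 6.29 against 4.42 and 4.77. Heart minus carcass was -0.66 in i1 and -0.40 in i5. For shared regions it was 0.36 and 0.78. Between heart and carcass, the tissue in which a WT region was found was therefore the one with the higher fold in each Tdg null embryo. The Tdg null liver of i1 stood at 5.06 for heart-only regions (31.8% held) and 7.91 for carcass-only regions (45.8% held), above the hearts and carcasses in both cases, so high folds were not particular to the matching tissue. The highest fold that can be reached is lower for a library that covers more, so the sizes of these differences are not compared between classes. These are values from 2 embryos, with no test.

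Copy number divided the heart-only regions sharply. The 253 single-copy regions were found in 70.4% and 52.6% by the Tdg null hearts, 4.74 and 7.30 times the expectation, and in 20.6% and 27.3% by the Tdg null carcasses, 2.04 and 2.01 times. The 131 multi-copy regions were found in 13.0% and 5.34% by the Tdg null hearts and in 1.53% and 2.29% by the carcasses, 0.81, 0.66, 0.14 and 0.15 times the expectation. The exact intervals of the hearts include the expected share and those of the carcasses lie below it. These intervals cover counting error only, and the expectation is over the whole ungapped genome, not over multi-copy DNA. WT hindbrains held the multi-copy regions in 50.4%, 53.4%, 74.8% and 53.4% and the single-copy regions in 22.1%, 23.7%, 33.6% and 22.9%. Multi-copy heart-only regions were thus frequent in WT hindbrain and rare in every Tdg null heart and carcass, and single-copy regions were held by the largest shares in Tdg null hearts, with the Tdg null liver of i1 next at 45.1%, 7.57 times the expectation. WT hindbrain and liver peaks cover little of the genome, so even the single-copy shares there were 30.8 to 295 times the expectation in hindbrain and 44.0 and 144 times in liver.

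Shared regions divided the same way, with liver as the WT tissue that held most multi-copy regions. Of the 163 multi-copy shared regions, WT livers held 99.4% (i6) and 81.0% (i9), and the Tdg null hearts held 4.29% and 1.84%. A single WT hindbrain held 84.7% of them and the other 3 held 16.0% to 19.0%. Of the 260 single-copy shared regions, WT livers held 62.7% and 26.2%, the Tdg null hearts 83.8% and 61.5%, and the Tdg null carcasses 45.4% and 69.2%. The WT livers come from the same embryos as the hearts and carcasses. The carcass-only regions were held by a smaller share in WT liver, 9.46% and 0.905%, and in WT hindbrain, 1.74% to 23.2% over the 4 libraries, which is 10.9 to 28.0 times the expectation.

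**Figure D4:**
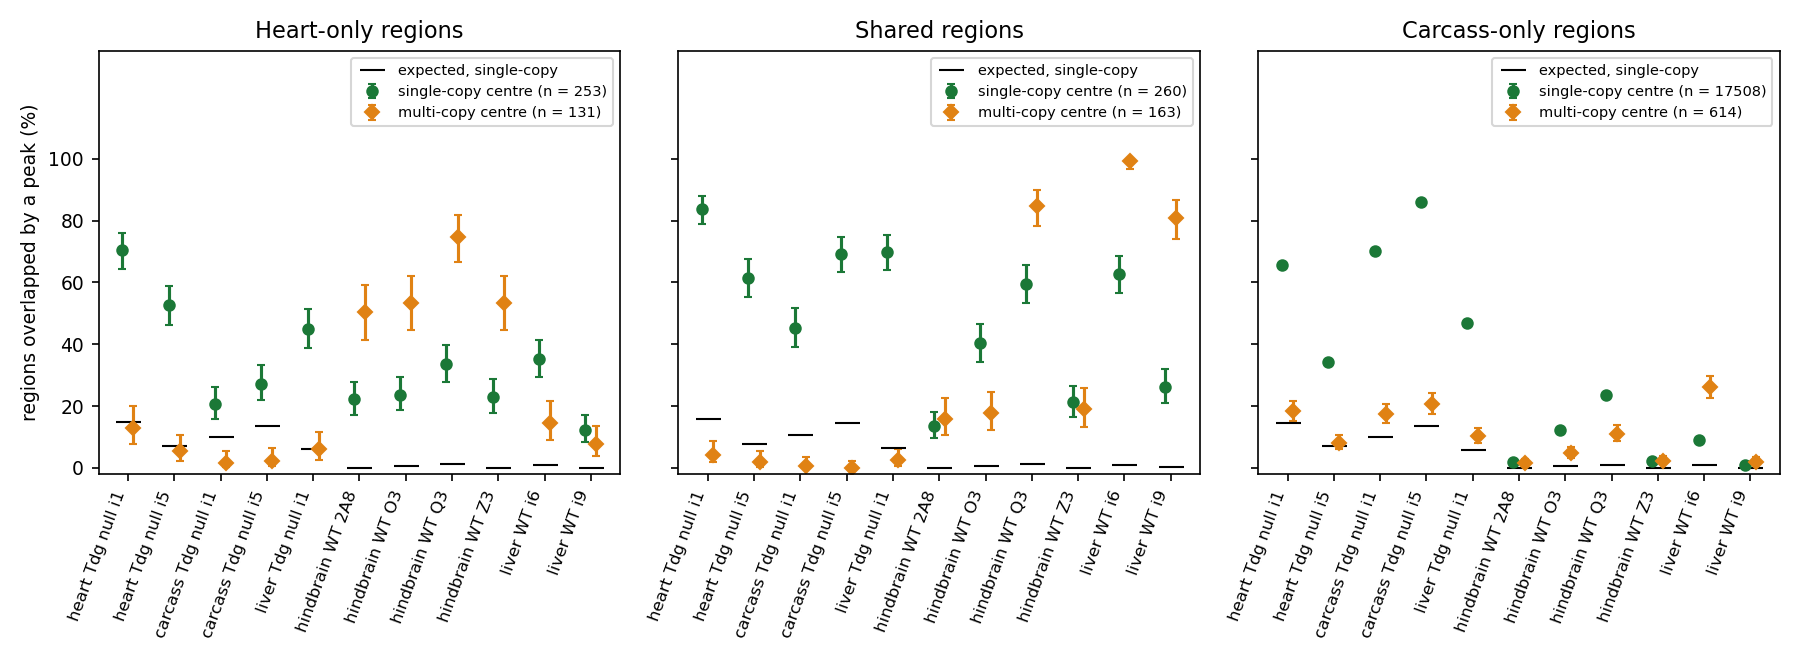
Share in percent of heart-only (left), shared (middle) and carcass-only (right) regions overlapped by a peak of libraries that did not define them, for regions with a single-copy centre (green circles) and a multi-copy centre (orange diamonds), with 95% exact intervals and the share expected for single-copy regions as a dash. Single-copy heart-only regions stand highest in the Tdg null hearts, at 70.4% and 52.6%, and multi-copy ones highest in WT hindbrain, at 50.4% to 74.8%.

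Most heart-only regions were not found in heart alone. Of the 384, 278 (72.4%) had a peak in at least 1 WT hindbrain or liver library, and 116 were in all 4 hindbrains. Of these 116, 109 were in neither WT liver, 106 in no Tdg null heart or carcass, 62 had a multi-copy centre and 19 touched a CGI. The 106 regions in no WT hindbrain or liver library had another profile. Of them, 87 were in at least 1 Tdg null heart, 17 had a multi-copy centre and 7 touched a CGI. "Heart-only" therefore means absent from carcass in this comparison, and 27.6% of these regions were also absent from the other WT tissues.

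The narrowest set is made of 37 regions with peaks in both WT hearts and both Tdg null hearts and in none of the WT carcasses, Tdg null carcasses, WT hindbrains and WT livers. Of these, 35 were single-copy, 16 touched an exon and 24 lay in or within 1 kb of a protein-coding gene. They lay in Per2, a repressor of the circadian clock, at chr1:93342501-93343200, in Rora, a nuclear receptor that acts on that clock, at chr9:69218701-69219300, and in Palld, an actin-binding protein of stress fibres, at chr8:64156001-64156700. Others lay in Adamts7, a matrix metalloprotease, in Prkch, a protein kinase C, in Cdyl, a chromodomain protein, and in Erc1, a protein of the cell cortex. The pair in Tuba1b and Tuba1c, near-identical tubulin genes, had a median of 7 copies, so the reads there cannot be assigned to either gene with certainty. These genes were named after the values were seen, and no gene of the heart lists is among them. The set was not screened against Tdg null liver or hindbrain.

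Genes that held the regions were long. Of 21088 autosomal protein-coding genes, 184 held a heart-only region in the gene or within 1 kb (0.873%), 166 a shared region (0.787%) and 3729 a carcass-only region (17.7%). The median length was 97.2, 116 and 81.5 kb in turn, against 15.6 kb over all genes. There were 95 genes with both a heart-only and a carcass-only region and 5 with both a heart-only and a shared region. When the bases under peaks were divided by the covered length of the library, 494 genes (2.34%) were higher in heart and 2838 (13.5%) higher in carcass in both embryos. A library with few peaks leaves most genes at 0, so the number higher in carcass follows in part from covered length.

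The genes with the most heart-only bases were few and mostly rested on 1 region. Gm15319, inside the region of 89100 bp, had 27547 bases in the heart of i6 and 18859 in the heart of i9 and 0 in the carcasses. Osbpl10, an oxysterol-binding protein, had 3300 and 3200 bases in the hearts, from 1 and 3 peaks, and 9300 and 8300 in the carcasses from 14 and 10 peaks, none of them in the heart-only region whose sequence is given above. Cyp2c29, a cytochrome P450, had 2300 and 800 bases in the hearts and 0 in the carcasses. The gene 4931408C20Rik had 2500 and 1400. Each of these leading genes held 1 wide heart-only region, and those of Gm15319, Osbpl10 and Cyp2c29 lay in multi-copy DNA.

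The other leading heart-only genes had fewer bases. Dot1l had 1800 bases in each heart and 0 in the carcasses. Smo, the transducer of Hedgehog signals, had 1300 and 1700 bases in the hearts and 0 in the carcasses. Muc6, a gastric mucin, had 2000 and 1400 against 0. Galk2, a sugar kinase, had 1900 and 1700 bases against 800 and 1100. In Dot1l, Smo and Muc6 the tissues did not overlap, as the choice of the genes fixes.

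Genes with the most shared bases had peaks in all 4 libraries. Srgap1, a GTPase activator in Slit-Robo signalling, had 1300, 2800, 8100 and 11000 bases in the heart of i6, the heart of i9, the carcass of i6 and the carcass of i9. Cldn14, a tight junction claudin, had 1100, 4200, 9700 and 7800, and Ltbp1, which holds latent TGF-beta in the matrix, had 1700, 1800, 10000 and 9300. Hyal2, a hyaluronidase, had 1000, 1600, 1000 and 1000 bases. The others were Lmln, 2610305D13Rik, Zfp534 and Gm20388, an annotated span of 4435 kb that contains other genes. Per covered length, Srgap1, Lmln, 2610305D13Rik, Zfp534, Ltbp1 and Hyal2 were higher in heart in both embryos. Gm20388 was higher in carcass in both, and Cldn14 in neither tissue. These genes were chosen for regions that hold heart peaks, and heart bases are divided by the smaller covered length. Higher values in heart follow in part from that choice.

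Genes with the most carcass-only bases were very long. First was the span of Gm20388, with 86 carcass-only regions and 115200 and 106600 bases in the carcasses against 9800 and 13100 in the hearts. Wwox, an oxidoreductase at a fragile site, held 42 carcass-only regions, with 49700 and 43900 bases in the carcasses and 1700 and 3700 in the hearts. The span annotated for Fgfr2, a fibroblast growth factor receptor, is 3009 kb here and held 45, with 59800 and 48100 bases against 2500 and 4800. Rbms3, an RNA-binding protein, held 30, Auts2, a neurodevelopmental gene, 28, Npas3, a neuronal transcription factor, 25 and 1700112E06Rik 31. Tshz2, a zinc finger factor of trunk identity, held 25, and also 2 heart-only regions. Per covered length, Wwox, Fgfr2, Rbms3, Auts2 and Npas3 were higher in carcass in both embryos and Tshz2 was not. The genes were chosen for their carcass-only bases, so this is no separate support.

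The heart identity lists held few heart peaks in number. In 27 cardiac transcription factors, 1 gene held a heart-only region (3.70%, with a background of 0.873%), none a shared one and 6 a carcass-only one (22.2%, with a background of 17.7%). Scaled to covered length, the list had 1.01 and 2.06 times the bases expected from its length in the hearts and 2.07 and 2.02 times in the carcasses. Gata4, a zinc finger factor that starts the cardiac program, had 0 bases in both hearts and 600 and 700 in the carcasses, at chr14:63836901-63837500 in the carcass of i6. Nkx2-5, Hand1, Hand2, Isl1 and Gata6 had no base under a peak in any of the 4 libraries. The share of all genes without a peak was not computed and gene length was not matched. Such absences, here and in the lists that follow, are therefore no result about the genes. Tbx5, the T-box factor of the atria and the left ventricle, had 500 and 800 bases in the hearts and 1600 and 1000 in the carcasses. Per covered length Tbx5 was the 1 gene of this list higher in heart in both embryos (3.70%), and 5 were higher in carcass (18.5%), both near the backgrounds of 2.34% and 13.5%.

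The heart-only region of this list was in Zfpm2, the GATA4 cofactor FOG2, at chr15:40860301-40860700. Zfpm2 as a whole had 200 and 400 bases in the hearts and 2200 and 3400 in the carcasses, and was higher in carcass per covered length. The region was in both Tdg null hearts and both Tdg null carcasses and in no WT hindbrain or liver. Prdm16, a zinc finger factor of compact myocardium, held 13 carcass-only regions, with 22400 and 18300 bases in the carcasses and 800 and 2600 in the hearts. Myocd, the coactivator of smooth and cardiac muscle genes, held 4 and Mef2c, a MADS-box factor of muscle, held 3. Mef2c had no base under a heart peak.

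Of 29 sarcomere genes, none held a heart-only region, 1 held a shared one (3.45%, with a background of 0.787%) and 10 held a carcass-only one (34.5%, with a background of 17.7%). The list had 0.96 and 1.40 times the bases expected from its length in the hearts and 1.59 and 1.58 times in the carcasses. The atrial and ventricular myosins Myh6 and Myh7, Actc1, Myl2, Myl3, Myl7, Tnni3 and Mybpc3 had no base under a peak in any library. Ttn, the molecular spring of the sarcomere, had 400 and 0 bases in the hearts and 2800 and 1800 in the carcasses. Myom1, an M-band protein, held the shared region, chr17:71451801-71452700, and had 700, 900, 3200 and 5300 bases over the 4 libraries, and was the 1 gene of the list higher in heart per covered length in both embryos (3.45%, background 2.34%), while 9 were higher in carcass (31%, background 13.5%). Myl4, the atrial light chain, held 3 carcass-only regions and had no base under a heart peak.

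Calcium handling and conduction genes held the most heart peaks of the heart lists, 17 and 13, in genes that also held 134 and 102 carcass peaks. Of 27, 1 held a heart-only region (3.70%, background 0.873%), 2 a shared one (7.41%, background 0.787%) and 15 a carcass-only one (55.6%, background 17.7%), with gene length not matched. Slc8a1, the sodium-calcium exchanger of the heart cell, held the heart-only region chr17:81840301-81840700 and the shared region chr17:81879401-81880400. It had 4 and 2 heart peaks and 8 and 7 carcass peaks. The heart-only region was in both Tdg null hearts and both Tdg null carcasses and in no WT hindbrain or liver. Per covered length Slc8a1 was the 1 gene of the list higher in heart in both embryos (3.70%, background 2.34%), and 7 were higher in carcass (25.9%, background 13.5%). Kcnq1, a potassium channel, held the other shared region, chr7:150574501-150575700, and 10 carcass-only ones. Cacna1c, the L-type calcium channel, had 1 and 0 heart peaks and 14 and 18 carcass peaks. Ryr2, the calcium release channel, had 1, 0, 5 and 1 peaks, and Atp2a2, Nppa and Nppb had none in any library.

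The last of the heart lists was that of endocardium and valves. Of its 20 genes 12 held a carcass-only region, 1 a shared one and none a heart-only one, and Tgfbr3, a coreceptor for TGF-beta, led with 8. The background for carcass-only regions is 17.7% of genes, with gene length not matched. Per covered length, 3 of the 20 genes (15%, with a background of 2.34%) were higher in heart in both embryos, Erbb4, a neuregulin receptor, Adamts9, a matrix protease, and Fbln1, a matrix glycoprotein, and 9 (45%, with a background of 13.5%) were higher in carcass. The list had 0.81 and 1.82 times the bases expected from its length in the hearts and 1.63 and 1.51 times in the carcasses.

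Genes of muscle, skeleton and limb were also read. Of 20 skeletal muscle genes 8 held a carcass-only region, among them Tnnt1, Ryr1 and Musk. Of 22 cartilage and bone genes 7 did, led by Sox5 with 26 regions, and of 30 limb and somite genes 6 did, led by Gli3 with 4. No gene of these 3 lists held a heart-only or shared region, which at backgrounds of 0.873% and 0.787% is no result about them. The background for carcass-only regions is 17.7% of genes, so the 8 of 20 lies above it and the 6 of 30 lies near it, with gene length not matched.

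Ectoderm, nerve and vessel lists were read against the same background of 17.7% for carcass-only regions. Of 13 skin genes 5 held a carcass-only region, Cdh1, Grhl3 and Dsp among them. Of 15 neural crest genes 2 did (13.3%), Ntrk3 and Ednrb, which is no more than the background. Of 24 spinal cord and neuron genes 11 did, led by the axon guidance genes Slit3 with 17 and Robo1 with 12, and Dcc, the netrin receptor, held a heart-only region that both Tdg null hearts and 1 of the 2 Tdg null carcasses also held. Of 20 endothelial genes 6 did, led by Erg with 8 and Fli1 with 5, and Flt1, a VEGF receptor, held 2 shared regions. One of these, chr5:148483101-148484300, was single-copy and was in both WT livers and both Tdg null hearts, and the other had a median of 2 copies.

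The remaining lists were those of blood, liver, hindbrain and the 5fC pathway. Of 11 erythroid genes 1 held a heart-only region and none a carcass-only one, with backgrounds of 0.873% and 17.7%, and so few genes carry little weight. That gene was Zfpm1, the GATA1 cofactor FOG1, with 1900 and 1500 bases in the hearts and 0 in the carcasses, at chr8:124853401-124854900. The region was in both WT livers, 1 of 4 WT hindbrains, both Tdg null hearts and both Tdg null carcasses. Prox1, a homeobox factor of the hepatocyte list, held a carcass-only region, and of 20 hindbrain genes 3 did, Lmx1a, Meis2 and Rfx4. No gene of the hepatocyte and hindbrain lists held a heart-only or shared region.

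The enzymes that make and remove 5fC were read last. Tdg had no heart peak and 1 peak in each carcass, at chr10:82109901-82110100 in i6 and chr10:82093801-82094200 in i9, which do not overlap. Tet1 had 1 peak in the heart of i9 and 1 in the carcass of i6, at different places. Tet2 had no heart peak and 3 in each carcass, 2 of which recurred as carcass-only regions, and Tet3 had no heart peak, 3 peaks in the carcass of i6 and 1 in the carcass of i9. Of the 11 genes of this list none held a heart-only or shared region and 3 held a carcass-only one (27.3%, background 17.7%), Tet2, Tet3 and the repair scaffold Xrcc1. With backgrounds of 0.873% and 0.787%, a count of 0 among 11 genes is no result about the list.

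Over the lists together, 298 different genes, 4 held a heart-only region (1.34%, with a background of 0.873%), 6 a shared one (2.01%, 0.787%) and 96 a carcass-only one (32.2%, 17.7%). No peak of any of the 4 libraries lay in 150 of them (50.3%). The share of all genes without a peak was not computed and gene length was not matched, so this is no result about the lists. Scaled to covered length, 2 of 15 lists were higher in heart in both embryos, 5 were higher in carcass in both and 4 had opposite signs. In the remaining 4 lists a heart held no base. Over all protein-coding genes the share of covered length in genes was 40.8% and 49.8% in the hearts and 47.0% and 46.7% in the carcasses, a log2 difference of -0.20 in i6 and 0.09 in i9.

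The lists higher in heart rested on few bases. The erythroid list had 2.3 and 2.0 kb in the hearts and 2.1 and 1.6 kb in the carcasses, a log2 difference of 3.14 and 3.13, and Zfpm1 held 1900 and 1500 of those heart bases. The neural crest list had 1.0 and 0.9 kb against 5.0 and 3.7 kb, a difference of 0.69 and 0.77. The lists higher in carcass were sarcomere (-0.73 and -0.17), calcium handling and conduction (-0.13 and -0.07), skeletal muscle (-1.48 and -0.19), cartilage and bone (-2.79 and -0.11) and spinal cord and neuron (-1.19 and -0.25). In each of these 5 the difference was larger in i6 than in i9. With single-copy peaks alone, the mean of the sarcomere list was 0.014 and that of the calcium list 0.32, so both changed sign. The neural crest list then stood at -0.11 in i6 and 1.002 in i9, and so was no longer higher in heart in both embryos. The cartilage and bone list stood at -1.97 and 0.0035, and so was no longer higher in carcass in both.

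**Figure D5:**
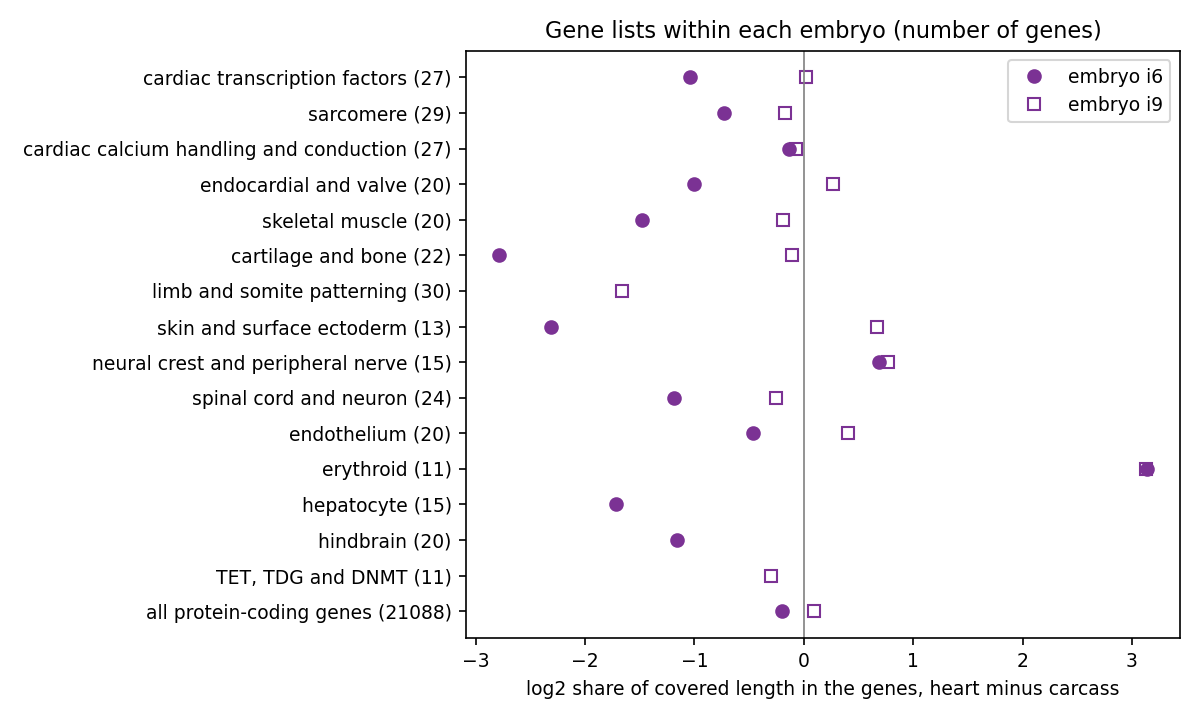
Log2 of the share of covered length that lies in the genes of each list (gene with 1 kb on each side), heart minus carcass, within embryo i6 (filled circles) and i9 (open squares), with the number of genes in brackets. A missing point is a list without a heart base in that embryo; the erythroid list stands at 3.14 and 3.13 and all genes at -0.20 and 0.09.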

How the data were processed

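5fC pull-down libraries from the heart and carcass of 2 WT mid-gestation embryos were analysed, with Tdg null heart, carcass and liver and WT hindbrain and liver libraries as a readout. The Tdg null liver of i5 and the Tdg null hindbrains were not used here. The authors used trim_galore for trimming and Bowtie2, at its defaults, for alignment to NCBIM37 (mm9), and called peaks library by library with the MACS caller of SeqMonk (p value cutoff 1e-05, fragment size 200 bp). The use of an input library is not given in the sources used here. The deposited peak files used here list positions alone, rounded to steps of 100 bp and without heights, so depth is unknown from them and no count test was run; reads were not analysed here.

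Software was scipy 1.17.1, numba 0.67.0, numpy 2.4.6 and pandas 2.3.3 under Python 3.11.15, with matplotlib 3.10.9 for plots. Of the peaks, 199 to 550 per library outside the 19 autosomes were left out. Expected overlap and enrichment were computed per chromosome over 2394 Mb of ungapped sequence, plainly and within GC classes (windows of 500 bp, steps of 2%). Exons, introns, promoters (1000 bp upstream) and genes came from the GENCODE annotation of NCBIM37. A CGI was a stretch of 200 bp or more, repeats not masked, with 50% GC or more and a CpG ratio of 0.6 or more to the number its bases predict. Copies of 32-base words were counted on both strands in the central 300 bp. Pairing of heart and carcass follows the embryo identifier in the labels, so the within-embryo fit is the main one. Intervals are 95% Clopper-Pearson intervals. The computations were tested on simulated peaks.

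The gene lists and members were chosen with earlier results of these data known. Of 318 list entries, 304 matched 1 autosomal protein-coding gene. Named genes were the 8 with the most bases in heart-only, in shared and in carcass-only regions, up to 3 of each list with the most heart-only and carcass-only bases, and Tdg, Tet1, Tet2, Tet3 and Gata4; others are named where values are given for a whole list or chosen after seeing them. Sequences were shown for the 2 widest regions of each class inside protein-coding genes, leaving out chromosome 18 and 1 shared region in an untranslated region. Alternatives covered peak width, chromosomes, embryos, pairing, overlap, covered length, GC content, island definition, gene window and copy number. The result of 1 list gene is not reported here.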

Additional observations from a re-analysis of the deposited data

How the results depend on the processing

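The numbers of regions depend on the processing more than the directions do. With peaks of at least 600 bp there were 202 heart-only, 146 shared and 9672 carcass-only regions. With the carcass cut to its widest peaks at the covered length of heart there were 843, 36 and 923, the carcass overlapped 4.20% of heart peaks, and heart overlapped 10.1% of carcass peaks. With single-copy peaks, chosen after seeing the data, there were 252 heart-only and 249 shared regions. In the Tdg null libraries these single-copy heart-only regions were in 61.5% of cases in heart and 24.0% in carcass, and the shared ones in 75.5% and 59.6% (means of 2 embryos). With 1 embryo left out, the other alone defined 2959 to 3974 heart-only, 1895 to 2454 shared and 32122 to 39468 carcass-only regions. The GC-matched expectation gave a mean log2 fold of overlap of 4.66 in place of 5.26.

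Without the replicate block, that is with the heart of one embryo paired with the carcass of the other, 39.5% of heart peaks were overlapped, in place of 38.5%, and the ratio of mean covered lengths was 2.91 on the log2 scale. Leaving out an embryo gave covered length ratios of 2.81 to 3.01. The mean difference at CpG islands stayed above 0 under each alternative run, from 0.78 (GC-matched) to 2.73 (carcass at heart length). The heart minus carcass difference of heart-only regions in the Tdg null embryos was 1.54 both with wide peaks and with single-copy peaks, and that of carcass-only regions stayed below 0.

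The number of lists higher in heart in every embryo used, 2 in the main setting, was 1 with peaks of at least 600 bp, 1 at the covered length of heart, 1 with single-copy peaks, and 2 to 6 with 1 embryo. The mean for sarcomere genes turned to 0.24 at the covered length of heart and 0.014 with single-copy peaks. That for calcium handling and conduction turned to 0.44 with peaks of at least 600 bp, 1.51 at the covered length of heart, 0.044 with 10 kb around genes and 0.32 with single-copy peaks. The cause of these changes was not tested. Means near 0 also changed sign within the spread between the embryos, as with single-copy peaks for introns (-0.084 to 0.032) and for all protein-coding genes (-0.056 to 0.149). Depth is unknown, so a missing peak is no measure of absent 5fC.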
